A study of Rattus norvegicus with 10 samples.

Results

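Cholesterol synthesis genes were described on rat heart cell arrays as a list of 8 enzymes, Hmgcs1, Mvd, Idi1, Fdps, Fdft1, Sqle, Lss and Msmo1, with every probe set annotated to them. A probe set is a group of short probes on the array that together give 1 value for a transcript. Of the 8 genes, 7 had annotated probe sets, 10 of them among the 31042 probe sets of the table, which carry 14218 gene symbols. Hmgcs1 was not analysed here. All 10 passed the filter on low values and were among the 23281 probe sets tested. None of the 7 enzymes takes up cholesterol, so uptake genes were taken from a separate list.

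The cultures were ventricular heart muscle cells of newborn Lewis rats aged 0 to 3 days, kept for 3 days after a recovery phase. The pulsed group with blebbistatin (n = 3 arrays) received electric pulses at 1 Hz and 2 V/cm together with 10 µmol/L blebbistatin, an inhibitor of myosin II that blocks contraction. The pulsed group (n = 4) received the same pulses alone, and the nonpulsed group (n = 3) received neither. No genotype or transgene distinguishes the groups, and blebbistatin was given only with pulses. The sample titles carry 4 dates, taken here as 4 occasions of isolation and culture and called culture series 1 to 4. Blebbistatin arrays came from series 2, 3 and 4, pulsed arrays from all 4, and nonpulsed arrays from series 1, 2 and 3. RNA of duplicate experiments was pooled on 1 array, so the spread within a group is that between series.

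Cells make cholesterol from acetyl-CoA through mevalonate. Mvd and Idi1 make the isoprenoid building blocks, Fdps joins them to farnesyl diphosphate, and Fdft1 condenses farnesyl diphosphate to squalene. Sqle and Lss oxidise and fold squalene into lanosterol, and Msmo1 acts in the removal of methyl groups on the way to cholesterol. When sterols are low in the endoplasmic reticulum, the transcription factor SREBP-2 (encoded by Srebf2) is released and raises transcription of these enzymes. Insig proteins hold it back when sterols are plentiful. In the heart the same route also supplies prenyl groups for small GTPases.

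SREBP and its partner NF-Y bind near the start of these genes, so promoters are shown for the 3 genes whose levels gave the lowest p-values for differences between culture series, Msmo1, Mvd and Fdps. Each window runs from 250 bases before to 50 after the start of the gene in RefSeq annotation of assembly GRCr8, written 5′ to 3′ along the gene. Capitals mark CCAAT, the NF-Y motif, and TCACNNCA, a loose form of the sterol regulatory element, on either strand.
Msmo1 (chr16:29746863-29747162, plus strand): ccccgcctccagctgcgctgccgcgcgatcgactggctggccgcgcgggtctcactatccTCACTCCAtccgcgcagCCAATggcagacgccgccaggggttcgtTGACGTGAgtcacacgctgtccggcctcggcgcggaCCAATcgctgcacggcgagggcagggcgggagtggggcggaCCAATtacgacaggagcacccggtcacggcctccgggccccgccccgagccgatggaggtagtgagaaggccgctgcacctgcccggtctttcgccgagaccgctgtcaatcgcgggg
Mvd (chr19:67414925-67415224, minus strand): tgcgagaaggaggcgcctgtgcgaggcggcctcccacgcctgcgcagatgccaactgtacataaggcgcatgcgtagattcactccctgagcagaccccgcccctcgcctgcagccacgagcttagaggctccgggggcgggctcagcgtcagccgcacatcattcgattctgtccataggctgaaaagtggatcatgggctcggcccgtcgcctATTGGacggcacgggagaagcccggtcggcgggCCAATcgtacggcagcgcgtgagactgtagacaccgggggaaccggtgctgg
Fdps (chr2:176804767-176805066, minus strand): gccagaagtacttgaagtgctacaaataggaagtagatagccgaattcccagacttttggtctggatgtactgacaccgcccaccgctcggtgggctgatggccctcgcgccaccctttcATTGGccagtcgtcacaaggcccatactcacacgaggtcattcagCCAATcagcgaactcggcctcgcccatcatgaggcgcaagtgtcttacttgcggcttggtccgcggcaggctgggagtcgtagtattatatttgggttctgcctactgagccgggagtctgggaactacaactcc

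RefSeq promoter windows were at hand for 5 of the 7 genes, also for Idi1 and Lss but not for Fdft1 and Sqle. CCAAT on either strand was in 5 of 5 windows, against 37.5% of 33469 rat promoter windows of the same length. GGGCGG, the letters of a GC box bound by Sp1, was in 4 of 5, all but Idi1, against 33.1% of all windows. TCACNNCA was in 1 of 5, against 14.6% of all windows. That window was Msmo1, with matches at -190 on the plus strand and at -145 on the minus strand relative to the start. The stricter TCACNCCAC was in 0 of 5, against 1.12% of all windows. TCACNCCAC is a special case of TCACNNCA, and no matches of different motifs overlapped in these windows. A match describes letters in the window and not a bound site.

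The cultures carried heart muscle RNA. All 8 cardiomyocyte markers lay above the third quartile of their array on every array. Markers of fibroblasts, smooth muscle, endothelium and macrophages were also measured, so the cultures were mixed, and fewer cells of a type and less RNA per cell cannot be told apart. Vwf (endothelium), C1qa and Cd163 (macrophages) were at the lowest level of the scale on some array. Within series 1 the pulsed and the nonpulsed array differed by over 2-fold at 1066 probe sets, against 137 in series 2 and 49 in series 3. The main changes of pulsed against nonpulsed cultures are therefore also given without it. Arrays had nearly the same distribution of values, with medians between 6.57 and 6.78, and log2 ratios of the 3′ to the 5′ probe sets of 0.45 to 0.77 for beta-actin and 0.06 to 0.22 for GAPDH.

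Mvd, mevalonate diphosphate decarboxylase, had log2 values of 8.40, 8.20 and 7.97 in pulsed cultures with blebbistatin of series 2, 3 and 4. It had 6.84, 7.79, 8.02 and 7.48 in pulsed cultures of series 1 to 4, and 7.43, 7.82 and 8.19 in nonpulsed cultures of series 1 to 3. The blebbistatin array was the highest in each series that held one, by only 0.01 over the nonpulsed array in series 3, and the pulsed array of series 1 was the lowest of all 10. The ranges of the groups overlapped.

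Idi1, isopentenyl diphosphate isomerase, had 2 probe sets. The first, 1368878_at, read 11.45, 11.48 and 11.08 in pulsed cultures with blebbistatin, 10.79, 11.62, 11.65 and 10.87 in pulsed cultures, and 11.37, 11.60 and 11.65 in nonpulsed cultures. The second, 1388872_at, read 9.48, 9.92 and 9.33 with blebbistatin, 9.03, 9.92, 9.94 and 8.90 in pulsed cultures, and 9.88, 9.83 and 10.09 in nonpulsed cultures. On both, the pulsed arrays fell into a low pair from series 1 and 4 and a high pair from series 2 and 3, and the nonpulsed arrays lay close together nearer to the high pair.

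Fdps, farnesyl diphosphate synthase, read 12.14, 12.30 and 11.86 in pulsed cultures with blebbistatin. It read 11.75, 12.32, 12.43 and 11.57 in pulsed cultures and 12.08, 12.37 and 12.51 in nonpulsed cultures. Here too the pulsed arrays of series 1 and 4 were the lowest, and the 3 groups overlapped.

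Fdft1, squalene synthase, stands where the route commits to sterols. Its probe set 1367839_at read 9.88, 10.14 and 9.90 in pulsed cultures with blebbistatin, 9.33, 10.12, 10.13 and 9.39 in pulsed cultures, and 9.69, 9.95 and 10.20 in nonpulsed cultures. Its other probe set, 1389906_at, read 8.60, 8.83 and 8.74 with blebbistatin, 8.30, 8.59, 8.89 and 8.36 in pulsed cultures, and 8.55, 8.31 and 8.71 in nonpulsed cultures. The split of the pulsed arrays into series 1 and 4 below series 2 and 3 was seen on both, and was wider on the first.

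Sqle, squalene epoxidase, a rate-limiting enzyme of the sterol branch, read 10.19, 10.21 and 9.92 in pulsed cultures with blebbistatin. It read 9.56, 9.83, 10.35 and 9.77 in pulsed cultures and 10.18, 9.92 and 10.17 in nonpulsed cultures. The pulsed group held both the lowest and the highest array.

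Lss, lanosterol synthase, read 8.50, 8.68 and 8.75 on probe set 1372973_at in pulsed cultures with blebbistatin, 8.22, 8.51, 8.86 and 8.55 in pulsed cultures, and 8.75, 8.50 and 8.89 in nonpulsed cultures. Probe set 1368086_a_at was dimmer, with 6.30, 6.67 and 5.86 with blebbistatin, 5.97, 6.37, 6.80 and 6.21 in pulsed cultures, and 6.70, 6.35 and 7.04 in nonpulsed cultures. The probe sets differed in series 4, where the blebbistatin array was the highest of its group on the first and the lowest on the second.

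Msmo1, the sterol C4 methyl oxidase, read 12.19, 12.02 and 11.41 in pulsed cultures with blebbistatin. It read 10.62, 11.85, 12.03 and 11.43 in pulsed cultures and 11.45, 11.94 and 12.22 in nonpulsed cultures. The pulsed array of series 1 lay far below the other 9 arrays, and both arrays of series 4 lay below those of series 2 and 3. Msmo1 had the widest spread within the pulsed group of the 10 probe sets, 11.48 ± 0.63 (SD, n = 4), against 8.53 ± 0.26 for Lss 1372973_at, the narrowest.

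**Figure D1:**
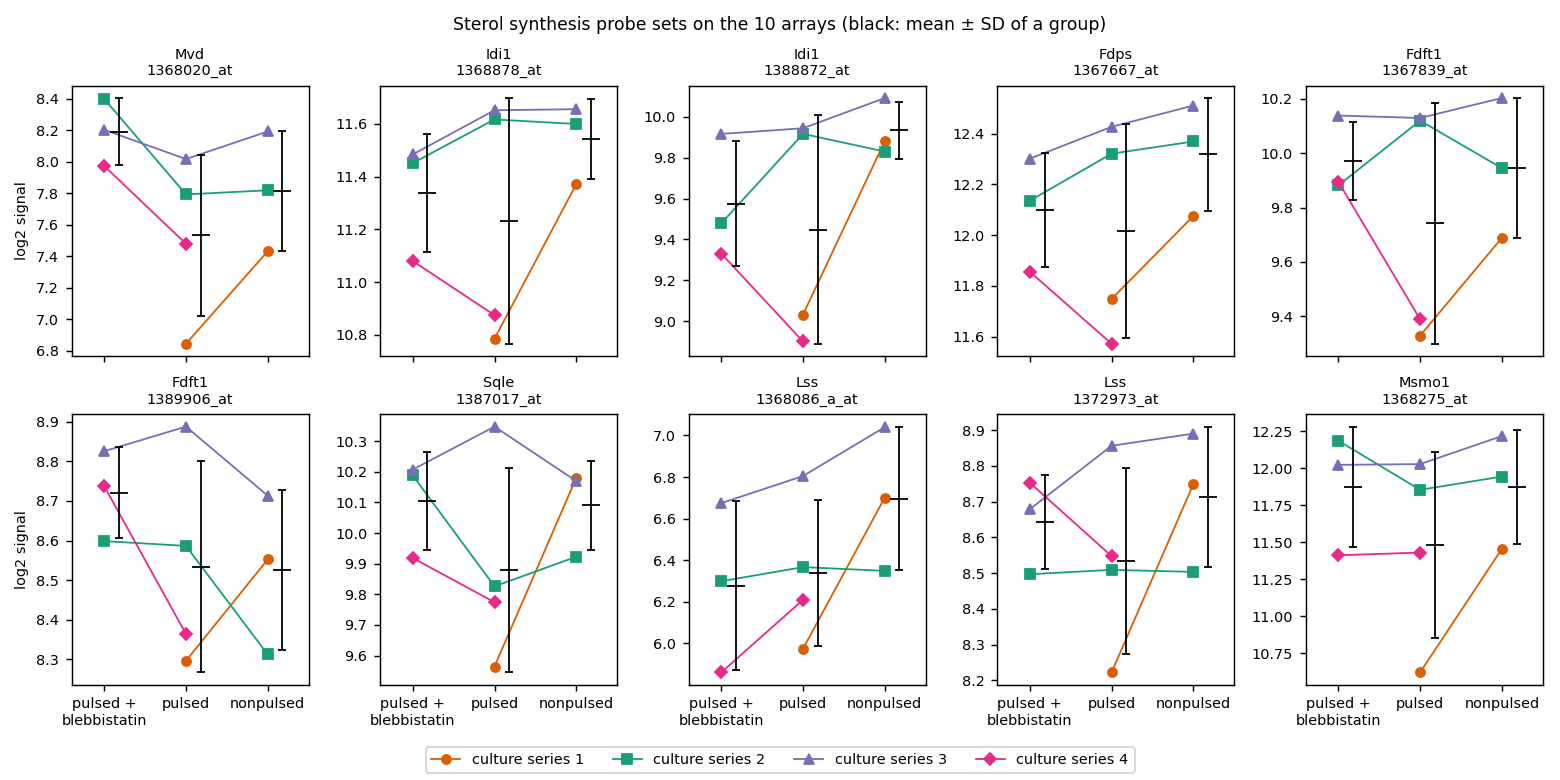
Log2 value (y axis) of each of the 10 probe sets in pulsed cultures with blebbistatin, pulsed cultures and nonpulsed cultures (x axis). Each point is an array marked by its culture series, lines join the arrays of a series, and black marks are group means ± SD. The pulsed arrays of series 1 and 4 lie low for Idi1, Fdps and Fdft1, and the groups overlap for every probe set.

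The comparison of pulsed cultures with blebbistatin against pulsed cultures set the drug against its absence while pacing went on. Blocked contraction and other effects of the drug cannot be told apart in it. Differences are log2 changes from a fit with culture series as a block (limma), each with its SE, and a probe set passed at an adjusted p under 0.05. None of the 10 sterol synthesis probe sets passed, and their changes were small apart from Mvd. Mvd had a change of 0.48 (SE 0.14), a 1.40-fold higher level, with a 95% interval of 0.15 to 0.82. It was higher with blebbistatin in 3 of 3 series, by 0.61, 0.19 and 0.49 in series 2, 3 and 4, and failed the adjustment (limma, adjusted p = 0.316).

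By step of the route, Idi1 had changes of 0.02 and 0.07 and Fdps one of 0.01, with 95% intervals within -0.38 to 0.52. The squalene steps had positive values, 0.13 and 0.16 for Fdft1 and 0.20 (SE 0.16) for Sqle. Lss had -0.11 and 0.06, and Msmo1 0.19 (SE 0.17). Lss 1368086_a_at was negative in 3 of 3 series, and the signs of the other probe sets of these genes were not shared by the series. The 10 probe sets had a median difference of -0.04, -0.09 and 0.24 in series 2, 3 and 4. Sqle and Msmo1 had positive differences of 0.36 and 0.33 in series 2, whereas Idi1 1388872_at, Fdps and Fdft1 1367839_at were at -0.44, -0.19 and -0.24 there and at 0.43, 0.28 and 0.51 in series 4.

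Of the 10 probe sets, 0 passed in this comparison, in which 0.0129% of all probe sets did, 3 of 23281. At an unadjusted p under 0.05, 1 of 10 did (Mvd), near the 11.6% of all probe sets. The fitted change was positive for 9 of 10, with a median of 0.10, against 55.5% positive and a median of 0.02 over all probe sets. None of the 10 had groups that did not overlap, against 6.18% of all probe sets that were higher in this way and 3.67% that were lower. Leaving out 1 array at a time moved the median of the 10 to between -0.0028 and 0.19.

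Markers of other cell types were read beside these values, and none passed the adjusted threshold by limma. Fibroblast markers summed to 29624 to 48720 on the linear scale in pulsed cultures with blebbistatin, against 34722 to 58929 in pulsed cultures, and 7 of 8 had a negative change. Smooth muscle markers summed to 7882 to 11281 with blebbistatin, against 14475 to 17786 in pulsed cultures, and 8 of 8 were negative. Macrophage markers summed to 672 to 1179 with blebbistatin, against 682 to 1814 in pulsed cultures, with 6 of 6 negative, and endothelial markers to 623 to 980, against 670 to 1018, with 4 of 4 negative. As ranges over all series, the sums of fibroblast, macrophage and endothelial markers thus overlapped between the groups, and those of smooth muscle did not. Within each of series 2, 3 and 4, the blebbistatin array had lower fibroblast, smooth muscle and macrophage sums than the pulsed array. For macrophages in series 3 these were 672 and 682. Endothelial sums were lower with blebbistatin in series 2 and 3. In series 4, the endothelial sum was 980 in the blebbistatin array and 908 in the pulsed array. Cardiomyocyte marker sums overlapped, at 58163 to 63829 with blebbistatin and 54616 to 65858 in pulsed cultures. Their part in the sterol gene values was not tested.

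Pulsed cultures were set against nonpulsed cultures to read the response to pacing. None of the 10 sterol synthesis probe sets passed the test, but 9 of 10 had a negative fitted change. The widest were Idi1 1388872_at at -0.36 (SE 0.19) and Msmo1 at -0.34 (SE 0.17), 1.29-fold and 1.26-fold lower in pulsed cultures. Their adjusted p-values by limma were 0.601 and 0.579, and without series 1 the changes were -0.14 and -0.11. Msmo1 was lower in 3 of 3 series, with differences of -0.84, -0.09 and -0.19. Mvd was likewise, with -0.59, -0.03 and -0.18, as was Fdps, with -0.33, -0.05 and -0.08.

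Of the others, Lss had changes of -0.27 and -0.21, Mvd -0.26 (SE 0.14), Idi1 1368878_at -0.22, Fdps -0.20 (SE 0.12) and Sqle -0.17. Fdft1 was split, with -0.15 on 1 probe set and 0.03 on the other, and the positive one was -0.04 after quantile normalization or median centring. Without series 1, Lss had -0.07 and -0.06, Mvd -0.12, Idi1 1368878_at -0.06, Fdps -0.14, Sqle 0.04 and Fdft1 -0.05 and 0.16. Over all 23281 probe sets 0 passed (0%), with a smallest adjusted p of 0.480 by limma. At an unadjusted p under 0.05, 1796 were higher and 317 lower in pulsed cultures, 9.08% in all, and 0 of the 10 were among them. The median change of the 10 was -0.22, against 0.04 over all probe sets, of which 38.9% were negative. None of the 10 had groups that did not overlap, against 1.16% of all probe sets that were lower in this way and 6.17% that were higher.

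In series 1 all 10 were lower in the pulsed than in the nonpulsed array, with differences of -0.85 to -0.26 and a median of -0.59. Lower values at all were found for 37.2% of all probe sets in that pair. A level lower by over 1.5-fold was found for 6 of 10 (Mvd, both of Idi1, Sqle, Lss 1368086_a_at and Msmo1), against 4.38% of all probe sets. In series 2 the median was 0.01, with 6 of 10 positive, against 57.5% of all probe sets. In series 3 it was -0.08, with 8 of 10 negative, against 44.9% of all. Without series 1 the median of the 10 was -0.07. A term for the response of series 1 against that of the other series was added to the fit after the values were seen, which left 3 residual degrees of freedom. All 10 had a negative difference, -0.73 to -0.19 with a median of -0.50, against a median of 0.08 over all probe sets. None of the 10 passed, with adjusted p-values of 0.361 to 0.804 by limma, nor did any probe set (0% of all). Sqle, Lss 1368086_a_at and Msmo1, 3 of the 10, had an unadjusted p under 0.05, against 11.7% of all.

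The same pair of arrays in series 1 also differed in markers. Cardiomyocyte markers summed to 64883 in the pulsed and 40435 in the nonpulsed array, endothelial markers to 1018 and 492, and smooth muscle markers to 14475 and 22413. Fibroblast marker sums were nearly equal, 58929 and 58869, as were those of macrophages, 1799 and 1929. Over all series, 8 of 8 cardiomyocyte markers had a positive change, with sums of 54616 to 65858 in pulsed and 40435 to 56534 in nonpulsed cultures. Endothelial markers summed to 670 to 1018 in pulsed and 492 to 582 in nonpulsed cultures, with 2 of 4 positive. As ranges over all series, the endothelial sums did not overlap between these groups, and those of the 4 other cell types did. Within each of series 1, 2 and 3, the cardiomyocyte and endothelial sums were higher in the pulsed array. For cardiomyocytes in series 3 these were 54616 and 53698. Sums of the other cell types had no direction shared by the 3 series. The part of these shifts in the sterol gene values was not tested.

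**Figure D2:**
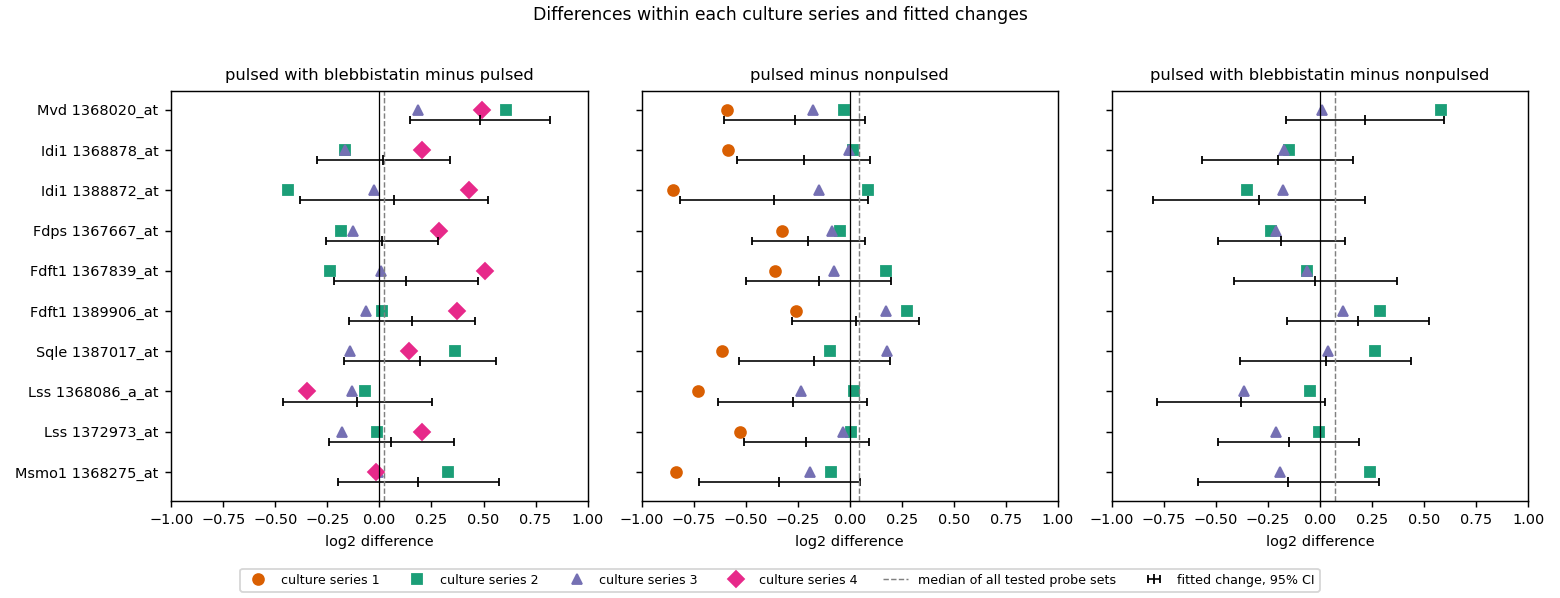
Log2 difference within each culture series (small markers) and fitted log2 change with its 95% interval (x axis) for the 10 probe sets (y axis), in the 3 comparisons. In the comparison of pulsed with nonpulsed cultures the series 1 differences lie between -0.85 and -0.26, away from those of series 2 and 3.

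Set against nonpulsed cultures, pulsed cultures with blebbistatin also showed no sterol synthesis probe set past the threshold. The widest change was that of Lss 1368086_a_at at -0.38 (SE 0.17, limma, adjusted p = 0.243), with -0.05 and -0.37 in series 2 and 3. Idi1 had -0.20 and -0.29 and Fdps -0.19 (SE 0.13), and these 3 probe sets were lower in both series. Mvd had 0.22 (SE 0.16) and the other Lss probe set and Msmo1 each -0.15. Fdft1 had -0.02 and 0.18 and Sqle 0.03. The sign turned for Sqle after quantile normalization (-0.01) or median centring (-0.06), and for Msmo1 and Fdft1 1367839_at without the series block.

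In this comparison 110 probe sets passed, 0.472% of all, and 0 of the 10 did. At an unadjusted p under 0.05 the counts were 22.4% of all and 0 of 10. The median change of the 10 was -0.15, against 0.07 over all, and 7 of 10 were negative, against 39% of all probe sets. It was -0.03 without series 1, which held no blebbistatin array. None of the 10 had groups that did not overlap, against 17.6% of all probe sets that were higher in this way and 6.9% that were lower. The 3 comparisons share arrays, so their changes are not independent of each other.

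None of the cell type markers passed the adjusted threshold by limma in this comparison. Smooth muscle markers summed to 7882 to 11281 in pulsed cultures with blebbistatin, against 13409 to 22413 in nonpulsed cultures, with 7 of 8 negative. Cardiomyocyte markers summed to 58163 to 63829 with blebbistatin, against 40435 to 56534 in nonpulsed cultures, with 7 of 8 positive. Endothelial markers summed to 623 to 980 with blebbistatin, against 492 to 582 in nonpulsed cultures, with 2 of 4 positive. None of these 3 pairs of sums overlapped. Fibroblast sums did, at 29624 to 48720 with blebbistatin and 38029 to 58869 in nonpulsed cultures, with 7 of 8 markers negative. Macrophage sums did as well, at 672 to 1179 and 643 to 1929, with 6 of 6 negative. Within series 2 and 3 the fibroblast sum was lower with blebbistatin in both. The macrophage sum was lower with blebbistatin in series 2 and higher in series 3. The part of these markers in the sterol gene values, and in those of Lrp8 and Fads2 given further on, was not tested.

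The 4 culture series were compared within the same fit by an F test of any difference among them, and 1 of the 10 probe sets passed. It was Msmo1 (limma, adjusted p = 0.0438). Its series levels, adjusted for group and centred, were -0.61, 0.34, 0.43 and -0.16 in series 1 to 4, a range of 1.05 or 2.07-fold. Fdps and Mvd came close, with adjusted p-values of 0.0546 and 0.0568 by limma. Mvd had levels of -0.53, 0.22, 0.36 and -0.05, and Fdps of -0.20, 0.19, 0.33 and -0.31.

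Of the 10 probe sets, 1 passed, against 8.09% of all probe sets, and 7 had an unadjusted p under 0.05, against 28.4%. The 3 that did not were Fdft1 1389906_at, Sqle and Lss 1372973_at. Series 3 was the highest for 10 of 10, against 17.9% of all probe sets, and series 1 and 4 both lay below series 2 and 3 for 8 of 10, against 19.6%. The exceptions were Lss 1372973_at and Fdft1 1389906_at. These levels come from the fit over all groups. In nonpulsed arrays alone, series 1 lay above series 2 for Idi1 1388872_at, at 9.88 against 9.83. The same held for Sqle, at 10.18 against 9.92, and Lss 1368086_a_at, at 6.70 against 6.35. For these probe sets the order of series 1 and 2 was thus seen in pulsed but not in nonpulsed arrays. For the other probe sets of the 8, series 1 lay below series 2 in nonpulsed arrays too. The range of levels had a median of 0.63 over the 10, against 0.36 over all. This test was chosen after the values were seen. Under 16 other settings Msmo1 passed in 5, and of the fits without 1 array it passed only in that without the nonpulsed array of series 1, with adjusted p between 0.0258 and 0.129 by limma, and Mvd and Fdps each passed in 4.

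The mean over the 7 genes shows the order of the arrays. In pulsed cultures with blebbistatin it was 10.39, 10.43 and 10.13 in series 2, 3 and 4. In pulsed cultures it was 9.59, 10.29, 10.49 and 9.87 in series 1 to 4, and in nonpulsed cultures 10.14, 10.30 and 10.55 in series 1 to 3. The pulsed arrays of series 1 and 4 were the lowest, and the nonpulsed array of series 3 the highest. In series 2 and 3, which held all groups, the arrays lay closer together than in series 1 or 4.

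Markers of other cell types were read by the same F test. Fibroblast markers summed to 58869 to 58929 in series 1 and 48720 to 56845 in series 4, against 29624 to 38029 in series 2 and 40138 to 47846 in series 3, and 6 of 8 passed the same F test. Macrophage markers summed to 1799 to 1929 in series 1 and 1179 to 1814 in series 4, against 713 to 885 in series 2 and 643 to 682 in series 3, and 6 of 6 passed. Both sums were higher in series 1 and 4 than in series 2 and 3. Endothelial markers summed to 492 to 1018 in series 1, 582 to 670 in series 2, 571 to 716 in series 3 and 908 to 980 in series 4, and 3 of 4 passed. Smooth muscle sums overlapped, at 14475 to 22413, 11281 to 17456, 8282 to 15286 and 7882 to 17786 in series 1 to 4, and 1 of 8 passed. Cardiomyocyte sums overlapped between the series too, at 40435 to 65858 over all arrays, and 0 of 8 markers passed. The part of cell makeup in the sterol gene levels was not tested.

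**Figure D3:**
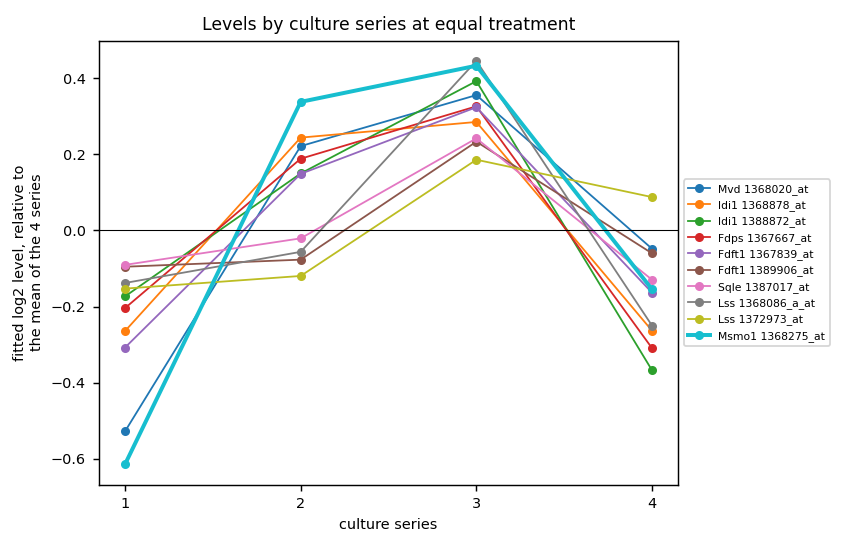
Level of each probe set in culture series 1 to 4 (x axis), as log2 relative to the mean of the 4 series after adjustment for treatment group (y axis). Series 3 is the highest for all 10, and Msmo1 has the widest range, 1.05.

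The other genes of sterol handling were read from lists, on the probe set of each gene with the highest mean. Of the early sterol and isoprenoid enzymes, 5 of 7 listed genes were measured and 0 passed in any comparison by limma, nor did any have an unadjusted p under 0.05. Their median change was 0.00 for pulsed cultures with blebbistatin against pulsed cultures, -0.06 for pulsed against nonpulsed cultures, and -0.01 for pulsed cultures with blebbistatin against nonpulsed cultures. Acat2, which makes acetoacetyl-CoA at the head of the route, had -0.32 (SE 0.17) for pulsed against nonpulsed cultures, with differences of -0.92, 0.07 and -0.11 in series 1 to 3 and -0.05 without series 1. It had -0.34 (SE 0.20), or -0.17 without series 1, for pulsed cultures with blebbistatin against nonpulsed cultures. Dhdds, which makes dolichol chains, had 0.20 (SE 0.16) for blebbistatin against pulsed and 0.35 (SE 0.18) against nonpulsed cultures. Pmvk, phosphomevalonate kinase, had -0.08 with blebbistatin against pulsed cultures, with 1 of 3 series positive, and -0.15 for pulsed against nonpulsed cultures.

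Of the late sterol enzymes, which act between lanosterol and cholesterol, 9 of 10 were measured, and 0 passed by limma or had an unadjusted p under 0.05. Their medians were 0.06, -0.17 and -0.05 in the same 3 comparisons, against 0.02, 0.04 and 0.07 over all probe sets. For pulsed against nonpulsed cultures 8 of 9 were negative, led by Nsdhl at -0.25 (SE 0.14) and Ebp at -0.24 (SE 0.13), both enzymes of the steps after lanosterol. Without series 1 they were -0.06 and -0.09, and Nsdhl was at -0.66 in series 1 and at -0.01 and -0.07 in series 2 and 3. Against nonpulsed cultures, pulsed cultures with blebbistatin had -0.30 (SE 0.20) for Erg28, a scaffold of the late enzymes, and -0.21 for Nsdhl, or -0.14 and -0.09 without series 1. Dhcr7, the last reductase of the route, and Sc5d, a desaturase, each had 0.25 (SE 0.15) with blebbistatin against pulsed cultures. Their differences in series 4 were 0.69 and 0.71. Other probe sets of Sc5d gave 0.05 (SE 0.13) and 0.18 (SE 0.16) in this comparison. Tm7sf2, Hsd17b7 and Ebp passed the F test among culture series (limma, adjusted p = 0.016, 0.042 and 0.047).

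Of 11 genes of sterol uptake and transport inside the cell, 7 were measured, with medians of 0.11, 0.06 and 0.01. At an unadjusted p under 0.05 there were 2, 2 and 2 in the 3 comparisons, against 11.6%, 9.08% and 22.4% of all probe sets. Of the 7, 1 passed, for pulsed cultures with blebbistatin against nonpulsed cultures, where 0.472% of all probe sets did. The gene that passed was Lrp8, a lipoprotein receptor that binds apolipoprotein E and reelin. It read 8.62, 8.95 and 8.05 in pulsed cultures with blebbistatin, 7.30, 8.06, 8.62 and 7.56 in pulsed cultures, and 6.53, 7.76 and 8.01 in nonpulsed cultures. In every series the blebbistatin array was above the pulsed array and the pulsed array above the nonpulsed one. The change was 0.97 (SE 0.12) for pulsed cultures with blebbistatin against nonpulsed cultures (limma, adjusted p = 0.0323), a rise of 1.96-fold.

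The other changes of Lrp8 did not pass, at 0.43 (SE 0.11, limma, adjusted p = 0.288) with blebbistatin against pulsed cultures and 0.54 (SE 0.11, adjusted p = 0.480) for pulsed against nonpulsed cultures. Its call held in 7 of 19 other settings and was lost on leaving out any array of series 2, 3 or 4, with adjusted p up to 0.198 by limma and changes of 0.88 to 1.11. Its level also differed among culture series (limma F test, adjusted p = 0.006). Scarb1, the scavenger receptor that takes up cholesteryl esters from HDL, had -0.33 (SE 0.12, limma, adjusted p = 0.514) for pulsed against nonpulsed cultures. It was lower in 3 of 3 series, with differences of -0.64, -0.01 and -0.35, and the change was -0.18 without series 1. Mylip, a ubiquitin ligase that degrades lipoprotein receptors, had 0.29 (SE 0.20) with blebbistatin against pulsed cultures, through a difference of 1.00 in series 4 alone.

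Of 10 regulators of the SREBP pathway 8 were measured. On the probe set of each with the highest mean, 0 passed by limma or had an unadjusted p under 0.05. Srebf2, which encodes SREBP-2, had changes of -0.04, 0.02 and -0.02 in the 3 comparisons, with SEs of 0.09 to 0.10. Insig1, the retention protein that is itself a target of SREBP, had -0.01, -0.08 and -0.08 (SEs of 0.11 to 0.12). Srebf1, which encodes SREBP-1 and serves fatty acid synthesis more than sterols, had 0.30 (SE 0.15), -0.04 and 0.26 (SE 0.17). Its second probe set gave 0.30, -0.16 and 0.14. The first of these was positive in 3 of 3 series, with an unadjusted p of 0.026 and an adjusted p of 0.374 by limma. Insig2 had 0.13, 0.23 and 0.37, and Rnf139, a ubiquitin ligase that binds Insig proteins, had 0.30 for pulsed cultures with blebbistatin and 0.20 for pulsed cultures against nonpulsed cultures. Without series 1 the changes against nonpulsed cultures were 0.25 with blebbistatin and 0.05 for pulsed cultures in Insig2, and 0.18 and 0.01 in Rnf139. The list medians were 0.06, -0.02 and 0.03.

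All 10 genes of LXR action, sterol efflux and esterification were measured and 0 passed by limma, with 4, 0 and 4 at an unadjusted p under 0.05 in the 3 comparisons, against 11.6%, 9.08% and 22.4% of all probe sets. Abca1, which exports cholesterol to apolipoprotein A-I, had 0.55 (SE 0.12, limma, adjusted p = 0.229) with blebbistatin against pulsed cultures and 0.72 (SE 0.14, limma, adjusted p = 0.0667) against nonpulsed cultures. It read 7.68, 7.76 and 10.32 with blebbistatin, 9.53, 7.22, 7.38 and 9.43 in pulsed cultures, and 9.21, 7.08 and 7.15 in nonpulsed cultures. Its level was far higher in series 1 and 4, the series with the higher fibroblast and macrophage marker sums given above. The part of cell makeup in this level was not tested. Within series 2, 3 and 4 the blebbistatin array was the highest for Abca1. Its 3 other probe sets also had positive changes in these comparisons, 0.31 to 0.63 and 0.38 to 0.79.

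Ch25h, cholesterol 25-hydroxylase, varied widely, with -0.88 (SE 0.74) with blebbistatin against pulsed, -0.73 (SE 0.74) for pulsed against nonpulsed, and -1.61 (SE 0.83) with blebbistatin against nonpulsed cultures. Its difference between pulsed and nonpulsed cultures was -3.32, 1.21 and -0.65 in series 1 to 3. Without series 1 its changes against nonpulsed cultures were -0.86 with blebbistatin and 0.45 for pulsed cultures. Apoe had 0.51 (SE 0.23) for pulsed against nonpulsed cultures, with 1.09 in series 1 and a change of 0.25 without that series. The medians of the list were -0.01, 0.03 and 0.22.

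Of 13 genes of fatty acid synthesis 12 were measured. Of these 1 passed, for pulsed cultures with blebbistatin against nonpulsed cultures, where 0.472% of all probe sets did. At an unadjusted p under 0.05 there were 2, 3 and 5 in the 3 comparisons, against 11.6%, 9.08% and 22.4% of all probe sets. Fads2, the delta-6 desaturase of polyunsaturated fatty acids and a target of SREBP-1, read 6.10, 6.95 and 6.48 in pulsed cultures with blebbistatin. It read 6.73, 6.77, 7.49 and 6.91 in pulsed cultures and 7.30, 7.02 and 7.72 in nonpulsed cultures. Every blebbistatin array lay below every nonpulsed array, and within each series the blebbistatin array was the lowest. The change was -0.87 (SE 0.12) for pulsed cultures with blebbistatin against nonpulsed cultures (limma, adjusted p = 0.0410), and -0.51 (SE 0.10) against pulsed cultures (limma, adjusted p = 0.195). The call held in 6 of 19 other settings and was lost on leaving out any 1 of the 10 arrays, with adjusted p up to 0.198 by limma and changes of -0.96 to -0.81.

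Me1, malic enzyme, which supplies NADPH for lipid synthesis, had 0.34 (SE 0.10, limma, adjusted p = 0.309) with blebbistatin against pulsed cultures and was higher in 3 of 3 series. Scd, stearoyl-CoA desaturase, had -0.54 (SE 0.18, limma, adjusted p = 0.493) for pulsed against nonpulsed cultures and was lower in 3 of 3 series. Without series 1 it had -0.38. Acacb had 0.45 (SE 0.28) there, with a difference of 1.49 in series 1, and -0.03 without series 1. The medians of the list were -0.02, -0.11 and -0.13. Prenyl transfer uses the isoprenoids made by Fdps and Ggps1. All 7 genes of that list, which also holds Icmt and Rce1 that act after the transfer, were measured. Of these, 0 passed by limma or had an unadjusted p under 0.05. Their medians were 0.06, -0.01 and 0.12, and no change exceeded 0.18 in size, which was that of Pggt1b, a geranylgeranyl transferase subunit, with blebbistatin against nonpulsed cultures. Rabggtb had 0.13 with blebbistatin against pulsed cultures, Icmt and Rce1 each 0.10 for pulsed against nonpulsed cultures, and Icmt 0.12 with blebbistatin against nonpulsed cultures.

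**Figure D4:**
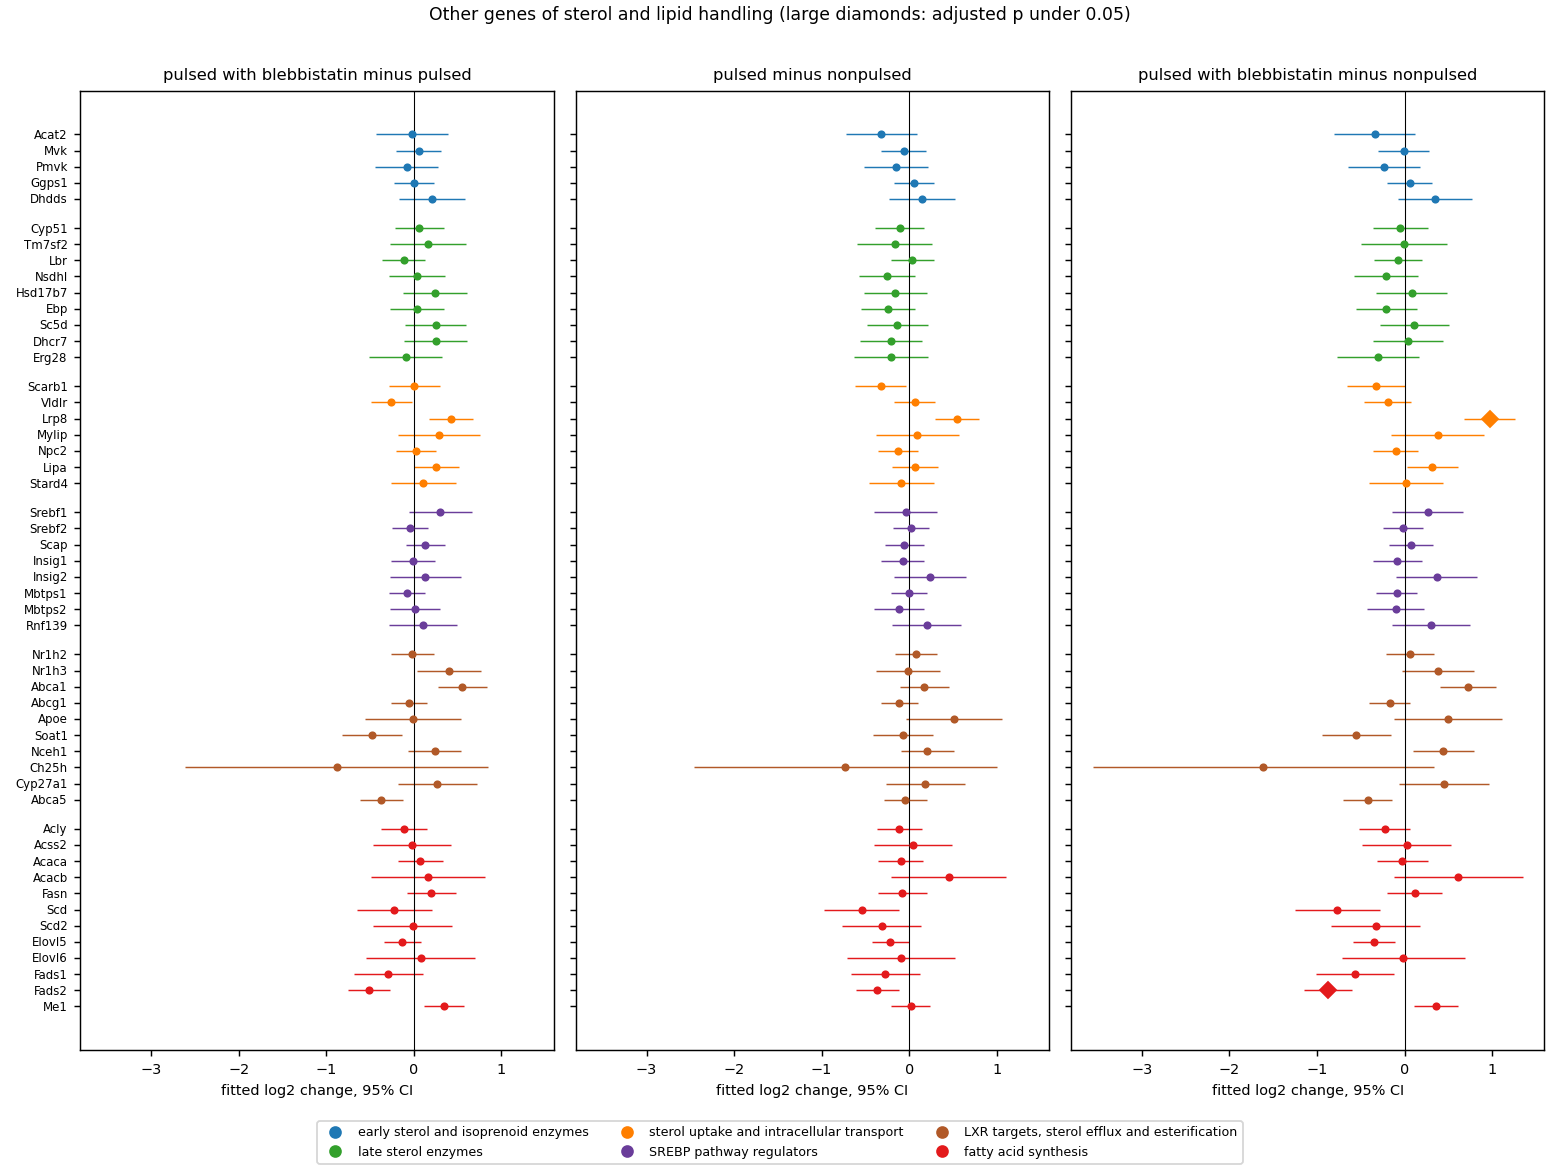
Fitted log2 change with its 95% interval (x axis) for each measured gene of 6 lists of sterol and lipid handling (y axis), in the 3 comparisons. Large diamonds mark Lrp8 and Fads2, which passed the adjusted threshold for pulsed cultures with blebbistatin against nonpulsed cultures, at 0.97 and -0.87.

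The 7 genes were positively correlated across the arrays. Over their 21 pairs, the correlation of log2 values over 10 arrays was 0.49 to 0.96 with a median of 0.73, and that of deviations from the mean of each culture series was 0.28 to 0.96 with a median of 0.75. These points share 4 culture series and are few, and the values are given as a description. In series 1 and 4, with 2 arrays each, the 2 deviations mirror each other. For the mean of the 7 genes they were 0.27 and -0.27 in series 1, and -0.13 and 0.13 in series 4. In series 2 and 3 they were -0.06 to 0.06. The correlation of deviations thus rests mainly on series 1 and 4, and pairs of other genes were not correlated for comparison. The probe sets of other genes most like the mean of the 7, by Pearson correlation of series deviations over 10 arrays, were those of Bloc1s2 (0.98), Pcyox1 (0.96), Cdipt (0.95), Enpep (0.95), a second probe set of Hsd17b7 (0.95), Cyp20a1 (0.95), Synpo (0.95) and Slit2 (0.95). Of these, Hsd17b7, an enzyme of sterol synthesis, was also the most like on log2 values, at 0.96, while Synpo was at -0.68, Pcyox1 at -0.12 and Slit2 at -0.11. The likeness of those 3 was thus within series and not across them. Cyp20a1 was at only 0.14 on log2 values.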

How the data were processed

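Per the labels' protocols, Trizol was used for extraction, and biotin-labelled RNA was put on Affymetrix rat arrays. The deposited values are log2, 1 for each probe set on each array. The submitters' processing notes name PLIER and Affymetrix Expression Console 1.1, and the settings and the base of the logarithm were not given. Base 2 was taken because the lowest deposited log2 level then corresponds to 10.0 to 10.97 on the linear scale. From 1988 to 2276 probe sets sat at that level on an array, which can understate differences of dim genes. Values of equal rank were within 0.263 on all arrays, and no scaling was added. The number of arrays limits the precision. Levels of different probe sets were not set against each other.

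Of 31099 probe sets 57 controls were removed. The platform annotation gave 1 symbol to 20826 probe sets, several to 436 and none to 9780. By gene identifier 20764 matched the RefSeq table of assembly GRCr8, with 0 symbols changed. The build behind the array annotation was not given. The lowest 25% by mean value (below 5.09) were removed, leaving 23281.

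Groups and culture series come from the labels, which give 4 pulsed arrays where the design text speaks of 3 per treatment. All 10 arrays entered 1 limma 3.58.1 model (R 4.3.3; group plus culture series as a fixed block; moderated, two-sided), with Benjamini-Hochberg adjustment over all probe sets and a threshold of 0.05. Such a fit lets each change draw on the third group too, so it can depart from the differences inside series. The series pair the arrays by the dates in their titles. Deviations from group means correlated at 0.353 to 0.633 in the 8 pairs of 1 series. In 25 other pairs they correlated at -0.578 to 0.498, with a median of -0.26. Shared isolation and shared array work of the same date cannot be told apart by these correlations. The F test among series and the term for the response of series 1 were chosen after the values were seen. The procedure was tested on simulated data.

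The members and gene lists were chosen with earlier results of these data known. Some listed genes are not reported here. Genes named were every probe set of the members, Insig1, Srebf1 and Srebf2, the list genes that passed or otherwise the 2 with the largest change per comparison, and the 8 other probe sets most like the member mean. Further names were picked after their values were seen. Marker sums use annotated markers on the linear scale. The settings varied were the block (none, or random by duplicateCorrelation with statmod 1.5.0), a fit of 2 groups, quantile normalization, median centring, the filter (none, or 50%), 1 probe set per gene, trended priors and single arrays left out. Whole culture series were left out as well, a setting chosen after the values were seen.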

Additional observations from a re-analysis of the deposited data

Results flagged for a closer look

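In 68 probe sets of the members and the other lists, 1 array stood apart from the other arrays of its group of 4 by the gap to its nearest neighbour, and none of the 10 member probe sets did. Chance sets apart about 1 in 20 groups. Acly, which makes cytosolic acetyl-CoA for sterol and fatty acid synthesis, had a log2 value of 10.56 in the pulsed array of culture series 3, against 10.20 to 10.23 in the other pulsed arrays. The gap was 0.927 of the range.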

How the results depend on the processing

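Of 186 member values per comparison under these settings, 165, 179 and 173 kept their sign and stayed short of the threshold for blebbistatin against pulsed, pulsed against nonpulsed and blebbistatin against nonpulsed cultures, and 21, 7 and 13 turned sign. None passed, with lowest adjusted p-values by limma of 0.207, 0.518 and 0.203. Counts of probe sets past the threshold moved more. For blebbistatin against pulsed cultures the count was 3 with the replicate block, 5 without it, 14 with a random block, 12 with only the 2 groups, 0 without the filter, 6 with the stricter filter and 10 with trended priors. It was 0 to 48 without 1 array, and 48, 0, 0 and 1 without culture series 1, 2, 3 and 4. For pulsed against nonpulsed cultures it was 0 under each setting run. For blebbistatin against nonpulsed cultures the count was 110 (70 higher and 40 lower), 46 without the replicate block, 1212 with a random block, 2 with only the 2 groups, 67 after quantile normalization (33 higher and 34 lower), 1 without the filter, 70 with the stricter filter, 63 with 1 probe set per gene and 216 with trended priors. It was 0 to 69 without 1 array, and 69, 0, 0 and 36 without series 1 to 4. The cause was not tested, except that 1 probe set per gene and the filters test other numbers of probe sets. The median of the members in that comparison was -0.035 without the replicate block and -0.033 without series 1, and -0.24 to -0.033 without 1 array. It was -0.0028 to 0.19 for blebbistatin against pulsed and -0.30 to -0.065 for pulsed against nonpulsed cultures without 1 array. The F test among series called 1884 probe sets, and 330 to 1854 without 1 array. The term for the response of series 1 called 0 probe sets, 1 without the filter and 0 to 1 without 1 array, and no member passed it in 14 other settings, with a lowest adjusted p of 0.248 by limma.

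Turns of sign were of small values. With only the 2 groups, blebbistatin against pulsed gave -0.043 and -0.012 for Idi1 and -0.0088 for Fdps. For pulsed against nonpulsed, Fdft1 1389906_at was -0.041 after quantile normalization and -0.043 after median centring. For blebbistatin against nonpulsed, Fdft1 1367839_at was 0.026 without the replicate block and 0.0014 with a random block, Msmo1 was 0.0014 without the replicate block and 0.024 with only the 2 groups, and Sqle was -0.014 after quantile normalization and -0.056 after median centring. Without the replicate block Pmvk was 0.010 for blebbistatin against pulsed, and Insig1 was 0.11, 0.040 and 0.15 in the 3 comparisons. With a random block Insig1 was 0.047 for blebbistatin against pulsed and 0.027 against nonpulsed. For pulsed against nonpulsed, Srebf1 was 0.043 with only the 2 groups, and Srebf2 was -0.016 after quantile normalization and -0.046 after median centring.

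Without 1 array, blebbistatin against pulsed ranged from -0.068 to 0.10 and -0.097 to 0.26 for Idi1, -0.11 to 0.082 for Fdps, -0.046 to 0.27 for Fdft1 1367839_at, -0.21 to 0.0039 and -0.0095 to 0.14 for Lss, -0.30 to 0.10 for Pmvk, -0.037 to 0.45 for Mylip, -0.087 to 0.0040 for Srebf2, -0.041 to 0.071 for Insig1, -0.019 to 0.36 for Insig2 and -0.020 to 0.24 for Pggt1b. For Idi1, Fdps, Fdft1, Lss, Mylip and Insig2 in that list, leaving out an array of series 4 turned the sign. Pulsed against nonpulsed ranged from -0.31 to 0.035 for Sqle, -0.067 to 0.16 for Fdft1 1389906_at, -0.13 to 0.053 for Srebf1, -0.18 to 0.0051 for Insig1, -1.51 to 0.45 for Ch25h, -0.026 to 0.66 for Acacb and -0.10 to 0.27 for Icmt. For Sqle, Insig1, Ch25h and Acacb, leaving out an array of series 1 turned the sign. Blebbistatin against nonpulsed ranged from -0.13 to 0.11 for Fdft1 1367839_at, -0.10 to 0.16 for Sqle, -0.046 to 0.037 for Srebf2, -0.013 to 0.32 for Pggt1b and -0.16 to 0.27 for Icmt. Lrp8 and Fads2 kept their direction there, at 0.91 to 1.08 and -0.95 to -0.81, and without the replicate block their adjusted p was 0.198 and 0.140 by limma.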
